A study of Mus musculus with 4 samples.

Results

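The 33 genes described here encode enzymes that carry glucose carbon through glycolysis, the pentose phosphate path and glycogen turnover. They were taken by symbol from the 22298 genes of the deposited count table, and all 33 were found in it. They comprise 16 genes of glycolysis, 4 genes of the PFKFB regulators, 7 genes of the pentose phosphate path and 6 genes of glycogen metabolism. The tissue was brown adipose tissue (BAT) of C57BL/6 mouse fetuses, labelled male and as on the final day of gestation. Pregnant mice of the control group drank tap water, and those of the fructose group drank water with 20% (w/v) fructose during pregnancy. The question was whether fetal BAT of the fructose group differed from that of the control group in RNA levels, and each group had 2 libraries of total RNA. How many fetuses or litters stood behind a library is not given in the sources used here, so the p-values measure the spread between these libraries.

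Glycolysis splits glucose into pyruvate in the cytosol, and lactate dehydrogenase interconverts pyruvate and lactate. The pentose phosphate path branches off at glucose 6-phosphate, yields NADPH, which lipid synthesis consumes, and returns its sugars to glycolysis, while glycogen is the stored polymer of glucose. Brown adipocytes take up much glucose when they produce heat, make fatty acids from part of it, and hold glycogen around birth.

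Total counts were 19224529 and 18542897 in the control group and 22461298 and 23645147 in the fructose group. Levels are given as CPM, counts scaled to the same library size, after TMM scaling, which corrects for differences in composition, unless a length-corrected level is named. The BAT label held: Ucp1, the uncoupling protein of brown adipocytes and the most abundant gene of a list of 15 brown adipocyte markers in the controls, was at 9705 and 12425 CPM in the controls and 11004 and 9606 with fructose. No gene of that list was at 0, and it summed to 27313 and 29165 CPM in the controls and 26615 and 24678 with fructose. The sex label did not hold in every library. Among genes of the Y chromosome, Eif2s3y had 155 and 146 counts in the controls, Ddx3y 130 and 119, Kdm5d 78 and 69, and Uty 59 and 56. These 4 genes had 0 counts in both fructose libraries, although these carry the same label; 0 counts allow a level of up to 0.134 and 0.127 CPM, from 3 counts and for counting error only. Fetal sex and treatment therefore cannot be told apart in any of the results. The share of counts from the mitochondrial genome was 5.89% and 6.49% without fructose and 10.8% and 11.2% with it. The 11 calls among the 33 genes, given below, held with mitochondrially encoded and haemoglobin genes left out of the library sizes. TMM scaling had already corrected for composition, and 1994 tested genes were called higher and 1371 lower, against 2001 and 1379 with these genes kept. What lay behind the mitochondrial share was not tested.

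Genes of sugar handling were called in both directions. Of the 33 genes, 6 were lower in the fructose group at an edgeR adjusted p under 0.05 (Gpi1, Pfkl, Aldoa, Tpi1, Pgls and Gyg), where 10.7% of all 12888 tested genes were called lower. Another 5 were higher (Pfkfb2, Rpe, Gbe1, Pygl and Ugp2), where 15.5% of tested genes were called higher. These shares are near those of all genes for the higher calls and above them for the lower calls, and no test of the list was made. Both fructose libraries lay below both controls for 14 of the 33 genes, against 31.6% of tested genes, and above both for 7, against 33.4%. The median log2 fold change was −0.092 over the 33 genes, −0.14 over glycolysis, 0.12 over the PFKFB regulators, −0.0057 over the pentose phosphate path and 0.064 over glycogen metabolism, beside 0.0025 over all tested genes. Less RNA per cell and fewer cells of a type cannot be told apart in these bulk libraries.

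The calls depended on how transcript length and GC content were treated. Across all tested genes the log2 fold change rose with transcript length (Spearman rho 0.516 over 12884 genes) and fell with GC content (rho −0.531), a description across genes that share the same 4 libraries. When both trends were removed, edgeR called 0 of the 33 genes at the adjusted threshold and 8 at an unadjusted p under 0.05 (all tested genes: 22.2%), while 3.33% of all tested genes were still called higher and 3.16% lower. DESeq2, run without removing the trends, called 4 of the 33 higher and 8 lower, against 10.5% and 8.88% of the genes it tested. With the length trend alone removed the calls of Aldoa, Tpi1, Gbe1 and Gyg were lost, and with the GC trend alone only those of Pfkfb2, Pgls and Gyg held. Some log2 fold changes stayed near those without removal when the call was lost, such as 0.22 for Gbe1 with the length trend alone removed and 0.31 for Pygl with the GC trend alone removed. DESeq2 did not call Gbe1, and scaling by library size only ended the calls of Pfkl, Aldoa and Gyg. The directions of Gbe1 and Ugp2 turned with the trends removed, whereas the other 9 called genes kept their sign. Whether the trends arose in the tissue or in the libraries was not tested.

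**Figure D1:**
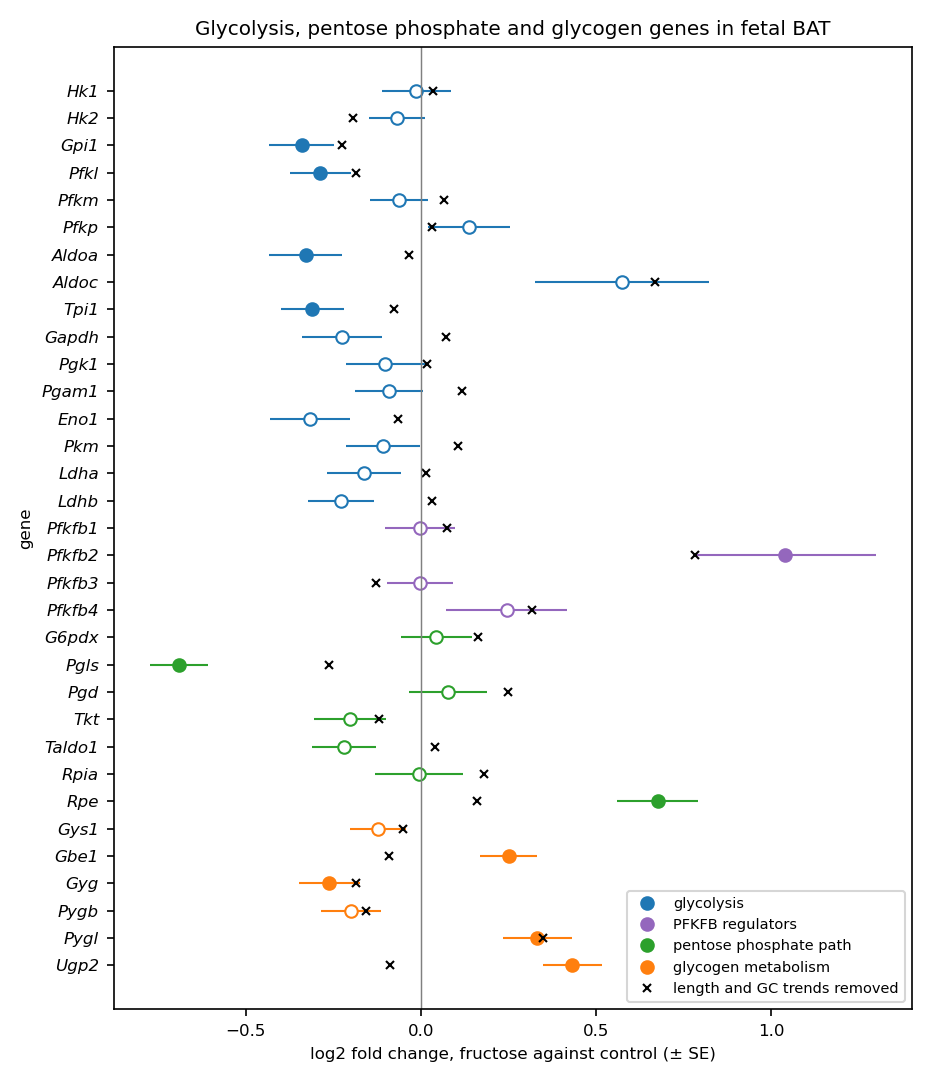
Log2 fold change of each of the 33 genes, fructose against control, with the standard error from edgeR as a bar, coloured by group of genes (n = 2 libraries per group). Filled circles mark the 11 genes called at an adjusted p under 0.05 and open circles the other 22; crosses give the value with the length and GC trends removed, where Gbe1 and Ugp2 cross 0 and none of the 33 is called.

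The libraries of a group were not alike. Fructose 2 was below fructose 1 for 28 of the 33 genes, and for 6383 of the 12888 tested genes. It was below all other libraries for 20 of the 33, 13 of them among the 16 glycolysis genes, and for 3477 tested genes. Without fructose 2, 4 of the 11 calls held, and those of Gpi1, Pfkl, Aldoa, Tpi1, Pfkfb2, Gbe1 and Gyg were lost. Without fructose 1, 7 held, and those of Pfkl, Gbe1, Gyg and Pygl were lost; leaving out control 1 ended the call of Gbe1, and leaving out control 2 that of Pygl. Among all tested genes too, fewer were called higher and fewer lower when either fructose library was left out. A lost call was not always a smaller difference. The log2 fold change was larger than with all libraries for Gbe1 and Gyg without fructose 2 (0.31 and −0.36) and for Pfkl without fructose 1 (−0.36). Pgls, Rpe and Ugp2, 3 genes, were called whichever library was left out. Without control 1, 11 of the 33 genes were called lower, against 12.8% of tested genes. The calls gained there were Gapdh, Pgk1, Eno1, Ldhb and Pygb, all lower, and Aldoc, higher. Eno1, Tkt and Taldo1 were called lower without control 2, Gapdh and Eno1 without fructose 1, and none was gained without fructose 2.

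**Figure D2:**
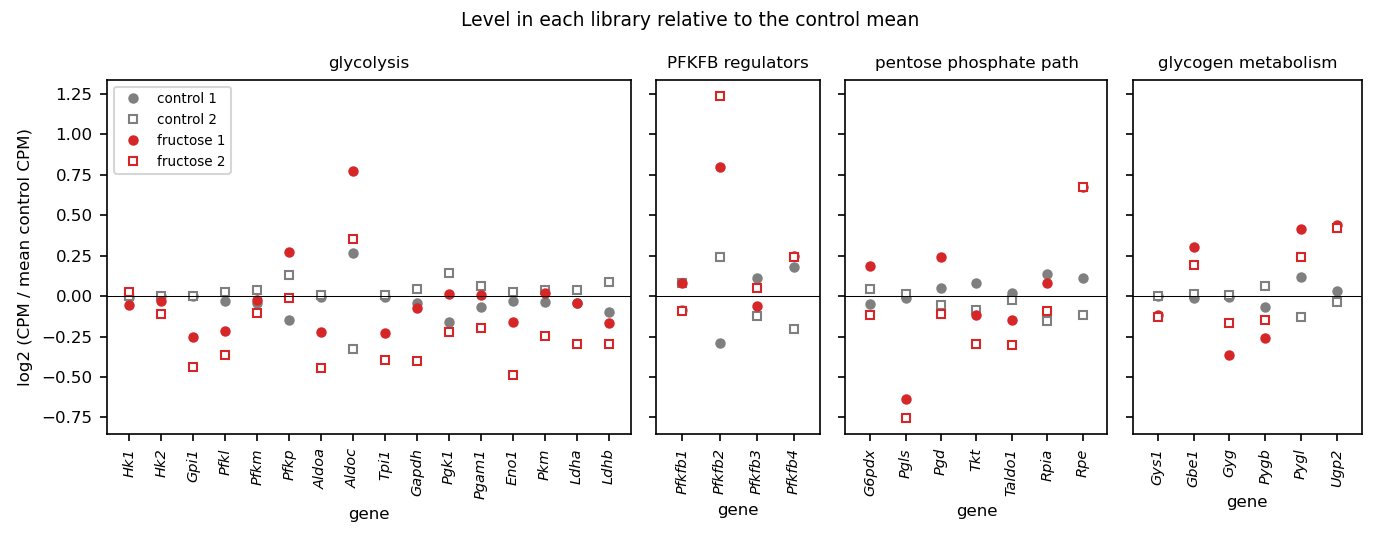
Level of each gene in each library as log2 of its CPM over the mean control CPM, in 4 panels by group of genes; grey symbols are control libraries and red symbols fructose libraries, circles for replicate 1 and squares for replicate 2. Fructose 2 (red squares) is the lowest library for 13 of the 16 glycolysis genes. Both fructose libraries lie below both controls for 14 of the 33 genes, such as Pgls (31.6% of tested genes). They lie above both for 7, such as Rpe and Ugp2 (33.4% of tested genes).

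The summed level of the glycolysis genes was lowest in fructose 2. Its 16 genes summed to 28643 and 29900.1 CPM in the controls and 26856 and 22532 with fructose. As TPM, which divides each count by transcript length and scales every library to the same total, the sums were 26961 and 28409.9 TPM in the controls and 26525 and 22873 with fructose. Fructose 1 was below both controls on both scales but nearer to them than to fructose 2. The log2 fold change was negative for 14 of the 16 genes, where 6406 of the 12888 tested genes were negative; 4 were called lower and 0 higher, against 10.7% and 15.5% of tested genes, and DESeq2 called 5 lower and 0 higher, against 8.88% and 10.5%. With both trends removed, 6 of the 16 were negative and the median became 0.023.

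Glucose is first trapped as glucose 6-phosphate by hexokinase. Hk2, the insulin-responsive form, had a higher TPM than Hk1 in every library, at 96.2 and 97.1 TPM in the controls and 99.1 and 96.6 with fructose, where the groups overlapped. In CPM it was at 318 and 318 CPM in the controls and 311 and 294 with fructose, with both fructose libraries below both controls. Hk1, the form found in most tissues, was at 11.6 and 11.8 TPM in the controls and 11.8 and 12.8 with fructose, and its groups overlapped in CPM. Neither passed the test, with log2 fold changes of −0.069 for Hk2 (adjusted p = 0.565 by edgeR) and −0.013 for Hk1 (adjusted p = 0.935). With the length trend alone removed edgeR called Hk2 lower (log2 fold change −0.32), and with both trends removed it did not (−0.19). The Hk2 share of the Hk1 and Hk2 sum per length was 89.2% and 89.2% in the controls and 89.4% and 88.3% with fructose, and the groups overlapped.

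The next steps held the called genes. Gpi1 (chr7:34201330-34230336, minus strand, ENSMUSG00000036427, GRCm38), which converts glucose 6-phosphate to fructose 6-phosphate, was at 1429.9 and 1428 CPM in the controls and 1202 and 1056 with fructose. The controls lay within 2 CPM of each other and both fructose libraries were below them, fructose 2 more so (log2 fold change −0.34 ± 0.09 SE, edgeR adjusted p = 0.0194). Pfkl (chr10:77986947-78010083, minus strand, ENSMUSG00000020277), the liver-type phosphofructokinase that commits the sugar to glycolysis, was at 709.8 and 738 CPM in the controls and 623 and 564 with fructose. Again both fructose libraries were below both controls (log2 fold change −0.29 ± 0.09 SE, edgeR adjusted p = 0.0315). The log2 fold changes were −0.23 for Gpi1 and −0.19 for Pfkl with both trends removed. The muscle type Pfkm was at 79.6 and 84.3 CPM in the controls and 80.6 and 76.3 with fructose, and the platelet type Pfkp at 40.5 and 49.1 CPM in the controls and 54.2 and 44.5 with fructose. For both of these the groups overlapped (log2 fold changes −0.062 and 0.14, edgeR adjusted p = 0.611 and 0.419).

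Pfkl was the main phosphofructokinase gene in every library. Pfkl made up 83.6% and 82.8% in the controls and 80.3% and 80.2% with fructose of the summed TPM of Pfkl, Pfkm and Pfkp. The Pfkm share was 12.1% and 12.2% in the controls and 13.5% and 14.1% with fructose, and the Pfkp share 4.29% and 4.96% in the controls and 6.28% and 5.69% with fructose. The Pfkl share was lower and the other shares were higher in both fructose libraries, with no overlap; the exact 2-sided permutation p was 0.333 for each, the smallest that 2 against 2 libraries can give.

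Aldolase cleaves fructose 1,6-bisphosphate, and triose phosphate isomerase balances its products. Aldoa (chr7:126795234-126800751, minus strand, ENSMUSG00000030695) had the highest mean TPM of the 33 genes and ranked 17 among all listed genes on that scale, at 7699 and 7841 TPM in the controls and 6964 and 6159.6 with fructose. In CPM it was at 7139.5 and 7211 CPM in the controls and 6145 and 5277 with fructose, with both fructose libraries below both controls (log2 fold change −0.33 ± 0.10 SE, edgeR adjusted p = 0.0356). With both trends removed its log2 fold change was −0.035. The brain-type Aldoc was at 4.75 and 3.16 CPM in the controls and 6.76 and 5.06 with fructose, and its higher values in the fructose libraries did not pass the test (log2 fold change 0.57 ± 0.25 SE, edgeR adjusted p = 0.107). Tpi1 (chr6:124810586-124814296, minus strand, ENSMUSG00000023456) was at 1159 and 1169 CPM in the controls and 992 and 885 with fructose, and both fructose libraries were below both controls (log2 fold change −0.31 ± 0.09 SE, edgeR adjusted p = 0.0254; −0.077 with both trends removed).

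The enzymes from glyceraldehyde 3-phosphate to lactate were abundant, and none of their 7 genes was called in the edgeR fit used above. Gapdh was at 4697 and 4989 CPM in the controls and 4604 and 3674 with fructose (log2 fold change −0.23 ± 0.11 SE, edgeR adjusted p = 0.163). Fructose 1 lay just under the lower control in CPM but between the controls in TPM, and fructose 2 well below on both scales. Leaving out each library in turn, the log2 fold change of Gapdh ranged from −0.40 to −0.070, nearest to 0 without fructose 2. Eno1, the enolase of most tissues, was at 4841 and 5036 CPM in the controls and 4413 and 3518 with fructose, with both fructose libraries below both controls (log2 fold change −0.32 ± 0.11 SE, edgeR adjusted p = 0.0592). DESeq2 did call Eno1 lower (adjusted p = 0.0136, log2 fold change −0.33). In edgeR on all libraries, Eno1 was also called lower with no filter on low counts (adjusted p = 0.0169) and with the replicate number as a block (adjusted p = 0.0468). With both trends removed it was not called, with or without the block (edgeR adjusted p = 0.828 and 0.782). Pkm, the pyruvate kinase of most tissues besides liver and red cells, was at 2558 and 2689 CPM in the controls and 2657 and 2209.8 with fructose, and fructose 1 lay between the controls (log2 fold change −0.11 ± 0.10 SE, edgeR adjusted p = 0.475). Pgk1, which makes ATP in this stretch, was at 596 and 733 CPM in the controls and 669.9 and 569 with fructose, and Pgam1, which moves the phosphate on, at 1149 and 1253 CPM in the controls and 1207 and 1046 with fructose. The groups overlapped for both (log2 fold changes −0.10 and −0.092, edgeR adjusted p = 0.541 and 0.521). Pgk1, Pfkfb1 and G6pdx are the 3 genes of the 33 that lie on chromosome X, and none of the 3 was called.

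Lactate dehydrogenase is a tetramer of the A and B subunits. Ldha was at 3174 and 3352 CPM in the controls and 3175 and 2655 with fructose, with control 1 and fructose 1 level and fructose 2 below (log2 fold change −0.16 ± 0.10 SE, edgeR adjusted p = 0.273). Ldhb was at 719 and 817 CPM in the controls and 685 and 627 with fructose, and both fructose libraries were below both controls in CPM but not in TPM, without passing the test (log2 fold change −0.23 ± 0.09 SE, edgeR adjusted p = 0.093). The Ldha share of their summed TPM was 76.0% and 74.7% in the controls and 76.9% and 75.3% with fructose, so the balance of the subunits overlapped between the groups.

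The PFKFB enzymes (6-phosphofructo-2-kinases/fructose-2,6-bisphosphatases) make and break fructose 2,6-bisphosphate, the activator of phosphofructokinase. Only Pfkfb2 (chr1:130689182-130729253, minus strand, ENSMUSG00000026409), the form known from heart, passed the test. It was at 2.27 and 3.27 CPM in the controls and 4.82 and 6.53 with fructose. Per length it had the lowest mean level of the 33 genes, at 0.857 and 1.25 TPM in the controls and 1.91 and 2.67 with fructose. Both fructose libraries were above both controls (log2 fold change 1.04 ± 0.26 SE, edgeR adjusted p = 0.013), and with the trends removed the log2 fold change was 0.78. Pfkfb3, the inducible form, made up 61.8% and 55.8% in the controls and 55.8% and 59.9% with fructose of the summed TPM of the 4 PFKFB genes. Pfkfb1, the form of liver and muscle, made up 33.6% and 39.9% in the controls and 38.4% and 33.7% with fructose. Both overlapped between the groups, with log2 fold changes of −0.0039 and −0.0025. Pfkfb4 was at 8.97 and 6.88 CPM in the controls and 9.42 and 9.39 with fructose and did not pass the test (log2 fold change 0.25 ± 0.17 SE, edgeR adjusted p = 0.316). The Pfkfb2 share rested on little RNA, at 0.773% and 1.18% in the controls and 1.67% and 2.25% with fructose.

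In the oxidative arm of the pentose phosphate path, the middle enzyme was called lower and its neighbours were not called, a contrast that was not itself tested. Pgls (chr8:71592176-71601092, plus strand, ENSMUSG00000031807), which opens 6-phosphogluconolactone, was at 357 and 362 CPM in the controls and 232 and 214 with fructose. Both fructose libraries were below both controls by far more than the controls differed (log2 fold change −0.69 ± 0.08 SE, edgeR adjusted p = 0.000356). Its transcript had the highest GC content of the 33 genes (65.9%) and the shortest length (1062 bases), and with the trends removed the log2 fold change was −0.26. G6pdx, which makes the first NADPH and sets the rate of the path, was at 180.2 and 192 CPM in the controls and 212 and 172 with fructose (log2 fold change 0.044 ± 0.10 SE, edgeR adjusted p = 0.785). Pgd, which makes the next NADPH, was at 873 and 812 CPM in the controls and 995 and 782 with fructose (log2 fold change 0.076 ± 0.11 SE, edgeR adjusted p = 0.648). For G6pdx and Pgd, fructose 1 was the highest library and fructose 2 the lowest, so the controls lay inside the range of the fructose group.

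The non-oxidative arm rearranges pentoses into glycolytic sugars. Rpe (chr1:66700831-66719805, plus strand, ENSMUSG00000026005), the epimerase that makes xylulose 5-phosphate, a metabolite known to activate the carbohydrate-response factor ChREBP through a phosphatase, was at 19.2 and 16.4 CPM in the controls and 28.4 and 28.4 with fructose. The fructose libraries were close to each other and above both controls (log2 fold change 0.68 ± 0.12 SE, edgeR adjusted p = 0.0022). With both trends removed the log2 fold change was 0.16 and with the GC trend alone removed 0.0029, neither of them called, and the transcript was among the poorest in GC of the 33 (39.1%). Rpia, the isomerase that makes ribose 5-phosphate, was at 26.9 and 22.0 CPM in the controls and 25.8 and 22.9 with fructose, and the groups overlapped (log2 fold change −0.0057 ± 0.13 SE, edgeR adjusted p = 0.979). The more abundant Tkt and Taldo1, the transferases of the arm, had mean control levels of 3098 ± 254 and 1632 ± 35.1 CPM and mean fructose levels of 2692 ± 239.9 and 1401 ± 106 (SD, n = 2). For each of them both fructose libraries were below both controls in CPM, in TPM the groups overlapped for Tkt, and neither passed the edgeR test (log2 fold changes −0.20 and −0.22, adjusted p = 0.162 and 0.0956). DESeq2 called Taldo1 lower (log2 fold change −0.23). The 7 genes summed to 6389.9 and 5931 CPM in the controls and 5829 and 5067 with fructose, with fructose 2 the lowest.

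Of the 6 glycogen genes, 3 were called higher and 1 lower, against 15.5% and 10.7% of all tested genes. With both trends removed, 0 were called in either direction. In CPM, 3 of the 6 genes were above and 3 below both controls in both fructose libraries, where 33.4% of all tested genes were above and 31.6% below. Ugp2 (chr11:21321138-21371201, minus strand, ENSMUSG00000001891), which makes UDP-glucose, the glucosyl donor, was at 50.5 and 48.1 CPM in the controls and 66.9 and 66.1 with fructose. The libraries within each group lay close together (log2 fold change 0.43 ± 0.08 SE, edgeR adjusted p = 0.00407). Gyg (chr3:20122084-20155317, minus strand, ENSMUSG00000019528), glycogenin, the protein primer of a new granule, was at 186 and 187 CPM in the controls and 145 and 166 with fructose and lower in both fructose libraries (log2 fold change −0.26 ± 0.09 SE, edgeR adjusted p = 0.0459; −0.19 with both trends removed). Gys1, the synthase of muscle and fat that lengthens the chains, was at 427 and 428 CPM in the controls and 394 and 391 with fructose and did not pass the test (log2 fold change −0.12 ± 0.08 SE, edgeR adjusted p = 0.28).

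Gbe1 (chr16:70313949-70569716, plus strand, ENSMUSG00000022707), which adds the branches, was at 159 and 161 CPM in the controls and 198 and 183 with fructose, and higher in both fructose libraries (log2 fold change 0.25 ± 0.08 SE, edgeR adjusted p = 0.0407). With the length and GC trends removed the log2 fold changes turned to −0.092 for Gbe1 and −0.089 for Ugp2; with GC alone removed they were −0.17 and −0.25. Among the phosphorylases, which release glucose 1-phosphate, Pygl (chr12:70190811-70231488, minus strand, ENSMUSG00000021069), the liver type, was at 80.4 and 67.9 CPM in the controls and 99.0 and 87.9 with fructose. Its higher values in the fructose libraries passed the test (log2 fold change 0.33 ± 0.10 SE, edgeR adjusted p = 0.0291), and the log2 fold change was 0.35 with the trends removed. The call of Pygl was lost with both trends removed (edgeR adjusted p = 0.0674). It held when the replicate number was a block as well, a fit that leaves 1 residual degree of freedom. Pygb, the brain type, was at 231 and 252 CPM in the controls and 202 and 218 with fructose, lower in both fructose libraries without passing the test (log2 fold change −0.20 ± 0.09 SE, edgeR adjusted p = 0.106). With the length trend alone removed edgeR called it lower (log2 fold change −0.28), and with both trends removed it did not (−0.16). In TPM Pygb was at 98.5 and 109 TPM in the controls and 90.7 and 101 with fructose, and the groups overlapped.

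Per length, Pygb made up 66.2% and 72.1% in the controls and 57.2% and 62.5% with fructose of the summed TPM of Pygb, Pygl and Pygm. The Pygl share was 30.2% and 25.3% in the controls and 36.6% and 32.9% with fructose. The share of Pygm, the muscle type, was 3.61% and 2.61% in the controls and 6.12% and 4.61% with fructose. Pygb had the largest share in every library, and its share was lower in both fructose libraries than in both controls (exact permutation p = 0.333).

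A further 69 genes of the same pathways gave 7 genes called higher and 5 called lower among 55 tested; the other 14 had too few counts. Of all tested genes 15.5% were called higher and 10.7% lower, and the shares here were near these. With both trends removed 3 stayed higher and 1 lower, where 3.33% and 3.16% of all tested genes were called. The 3 that stayed higher were muscle forms of enzymes described above. Eno3, the muscle enolase, was at 16.4 and 19.1 CPM in the controls and 34.9 and 28.3 with fructose (log2 fold change 0.83 ± 0.13 SE, edgeR adjusted p = 0.0014). Pgam2, the muscle phosphoglycerate mutase, was at 3.22 and 4.55 CPM in the controls and 8.71 and 5.92 with fructose (log2 fold change 0.91 ± 0.25 SE, edgeR adjusted p = 0.0186). Pygm was at 9.24 and 6.71 CPM in the controls and 15.9 and 11.8 with fructose (log2 fold change 0.79 ± 0.19 SE, edgeR adjusted p = 0.0115). For all 3, both fructose libraries were above both controls, and with the trends removed the log2 fold changes were 1.08, 1.30 and 0.92. Eno3 made up 0.437% and 0.490% in the controls and 1.02% and 1.03% with fructose of the summed TPM of Eno1, Eno2 and Eno3, so Eno1 stayed the main enolase in every library.

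Pck2, the mitochondrial enzyme that makes phosphoenolpyruvate, was the gene that stayed lower with the trends removed. It was at 131 and 132 CPM in the controls and 106 and 82.8 with fructose (log2 fold change −0.48 ± 0.11 SE, edgeR adjusted p = 0.00733), lowest in fructose 2, and its log2 fold change without the trends was −0.56. Without fructose 2 its log2 fold change was −0.31, and the call was lost. The other genes called higher were Phkb, a subunit of phosphorylase kinase (0.84), Gsk3b, a kinase that inhibits glycogen synthase (0.61), Pgm2l1, which makes glucose 1,6-bisphosphate (0.96), and the monocarboxylate transporter Slc16a7 (0.76), all as log2 fold changes. Those called lower were Dera (−0.31) and Prpsap1 (−0.41), which act on deoxyribose phosphate and in ribose phosphate synthesis, Gsk3a (−0.38), and Bsg (−0.30), the partner that brings lactate transporters to the membrane. The directions of Slc16a7 and Bsg turned with both trends removed (−0.32 and 0.013), and the values became 0.39 for Phkb, 0.17 for Pgm2l1, −0.20 for Dera and −0.18 for Prpsap1. DESeq2 called neither Dera nor Pgm2l1, although its log2 fold changes (−0.33 and 0.94) were near those of edgeR. Dera lost its call whichever library was left out, Pgm2l1 did so except without control 2, Bsg without either fructose library, Pgam2 and Pygm without fructose 1, and Slc16a7 without fructose 2. The log2 fold change of Dera stayed between −0.33 and −0.29 in these fits, and that of Bsg was −0.29 without fructose 1 and −0.30 without fructose 2, so these calls were lost with little change in size. Gsk3a was at 196 and 213 CPM in the controls and 157 and 158 with fructose and its paralog Gsk3b at 36.9 and 35.7 CPM in the controls and 54.1 and 56.6 with fructose. Their log2 fold changes were −0.12 and 0.16 with both trends removed, and neither was called.

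Skeletal muscle markers were also higher in the fructose libraries. All 20 genes of the muscle list were called higher in the fructose group, where 15.5% of all tested genes were, and 17 of them also with both trends removed. The list summed to 338 and 456 CPM in the controls and 1026 and 813 with fructose. Both fructose libraries were above both controls, fructose 1 the highest. Acta1, skeletal muscle actin and the most abundant gene of the list, was at 94.8 and 133 CPM in the controls and 305 and 201 with fructose, and no gene of the list was at 0 in any library. Eno3 and Pgam2 had the same order of the 4 libraries as this sum, while Pygm was higher and the sum lower in control 1 than in control 2. The part of muscle RNA in these results was not tested.

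Markers of red cells, which depend on glycolysis, were lower in the fructose libraries. The 12 erythroid genes summed to 19207 and 15297 CPM in the controls and 11768 and 12143 with fructose, and edgeR called 5 lower and 0 higher of 11 tested; with both trends removed it called 0, with 3 at an unadjusted p under 0.05. Hbb-bs was the most abundant, at 8296 and 6607 CPM in the controls and 5045 and 5216 with fructose, and Epb42 was at 0 in fructose 1. Of the 10 liver genes, 7 (Afp, Ttr, Serpina1a, Fgb, Cps1, Tat and Cyp3a11) had 0 counts in all libraries, and Alb had 0 in control 2 and fructose 2; the list summed to 0.897 and 0.776 CPM in the controls and 1.02 and 0.898 with fructose, led by Apoa2. Liver RNA was thus at or near 0 in each library. The 10 macrophage genes summed to 272 and 205 CPM in the controls and 204 and 214 with fructose (1 called higher, 2 lower), with none at 0. Lyz2 had the highest mean control CPM of this list, while Csf1r was above Lyz2 in control 2 and in both fructose libraries. The 10 endothelial genes summed to 1734 and 1802 CPM in the controls and 1625 and 1671 with fructose (0 higher, 2 lower), led by Cdh5 with none at 0. The macrophage sums overlapped between the groups, and both endothelial sums with fructose were below those of the controls. Of the 15 brown adipocyte genes 3 were called higher and 5 lower. With both trends removed the calls were 1 higher and 0 lower among the brown adipocyte genes, 0 and 0 among the macrophage genes and 0 and 1 among the endothelial genes. Of all tested genes 15.5% were called higher and 10.7% lower, or 3.33% and 3.16% with both trends removed, and no test of these lists was made. The erythroid and the glycolysis sums were both lower in the fructose libraries than in the controls, the former lowest in fructose 1 and the latter in fructose 2, and the brown adipocyte sum had the same order of the 4 libraries as the glycolysis sum. The part of red cell or brown adipocyte RNA in the glycolysis values was not tested.

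The 5 genes called higher had a median GC content of 42.5% and a median transcript length of 2992 bases, the 6 called lower 55.2% and 1764.5 bases, and the 22 others 53.3% and 2542 bases. Over the 33 genes the log2 fold change had a Spearman rho of −0.63 with GC content and 0.46 with length, and −0.17 and −0.080 once both trends had been removed. These are descriptions over genes measured in the same libraries.

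**Figure D3:**
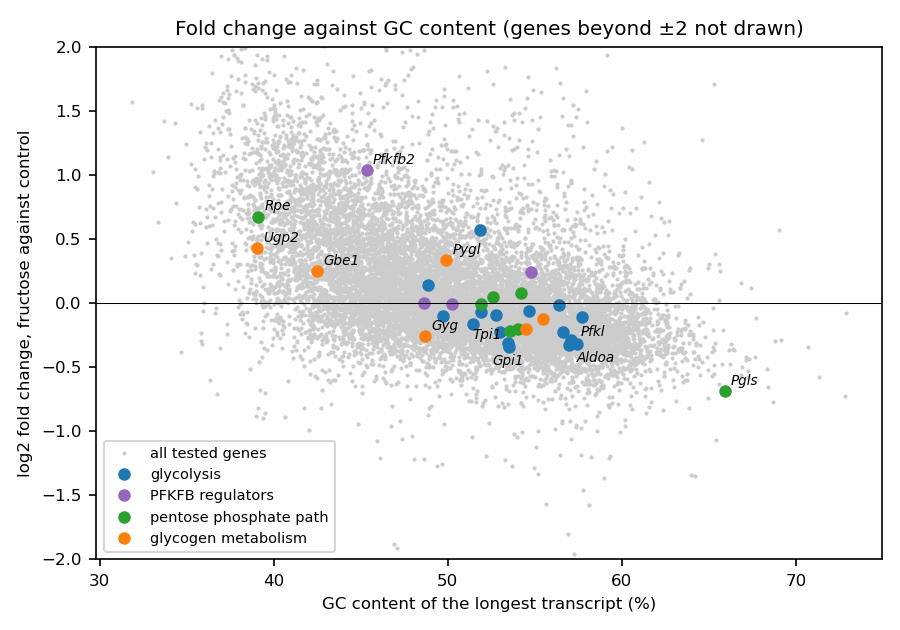
Log2 fold change, fructose against control, of each tested gene (grey) and of the 33 genes (coloured by group) against the GC content of the longest transcript in percent; the 11 called genes are named, and genes beyond 2 in either direction on the log2 scale are not drawn. Rpe, Ugp2 and Gbe1 lie at the GC-poor end and Pgls (65.9%) at the GC-rich end of a cloud that slopes downward.

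Promoter windows of the genes were searched because several of these enzymes are known targets of E-box and hypoxia factors. Windows of 300 bases, 250 before to 50 after each gene start, were taken from RefSeq (GRCm38.p6), and all 33 genes matched, with 52 windows. CACGTG, the E-box core that reads the same on both strands, was in 5 of the 52 windows (9.62%) and in 7.15% of all 32851 windows. Its 5 genes were Pfkfb2, called higher, Gyg, called lower, and Ldha, Pfkfb3 and Pfkm, not called. Among all tested genes, 15.5% were called higher and 10.7% lower. The calls of Pfkfb2 and Gyg were lost with the length and GC trends removed. ACGTG on either strand, the core of the hypoxia-response element, which every CACGTG also holds, was in 21 windows (40.4%) against 19.6% of all windows. GGGCGG on either strand, the GC box, was in 32 windows (61.5%) against 35.7%. TATAAA on either strand went the other way, in 1 window (1.92%) against 13.6%. A gene with several windows counts more than once, and no test of these shares was made. A pair of exact CACGTG with 5 bases between them, the spacing of a carbohydrate-response element, was in 0 of all windows. The CACGTG sites are given with 12 bases on either side, 5′ to 3′ on the gene's strand, with the motif in capitals. They were Pfkfb2 at chr1:130715826-130715855 (minus strand, intron, 22 bases before the start), Pfkfb3 at chr2:11502126-11502155 (minus strand, intron, 53 bases before the start) and Gyg at chr3:20155091-20155120 (minus strand, exon, 8 bases after the start). The others were Ldha at chr7:46845647-46845676 (plus strand, intron, 145 bases before the start), Ldha at chr7:46845744-46845773 (plus strand, intron, 48 bases before the start) and Pfkm at chr15:98092441-98092470 (plus strand, upstream of the annotated gene, 136 bases before the start). A match describes the letters only.
Pfkfb2: ggccaagcgcccCACGTGactcgccccaac
Pfkfb3: cacccttctctcCACGTGaaagggggctgg
Gyg: agcctgcgcggcCACGTGacggccgctata
Ldha, far site: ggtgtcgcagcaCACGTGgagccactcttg
Ldha, near site: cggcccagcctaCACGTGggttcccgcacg
Pfkm: aattaagtatgcCACGTGaagtaagtaatt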

How the data were processed

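The deposited table held raw read counts per Ensembl gene. Per the submitters' processing notes the authors used fastp, Bowtie2 2.0.0.5, TopHat2 2.0.0 and StringTie 2.2.0 with the mm10 build; whether counting used strand is not given in the sources used here, so overlapping and antisense genes could not be separated. IDs were matched to GENCODE M21 (GRCm38), 43 without a match; the lower of 2 Aldoa IDs was used, and the other had 6, 16, 4 and 12 counts. Of 22298 genes, 12888 passed edgeR's filterByExpr and were tested by the quasi-likelihood test of edgeR 4.0.16 (R 4.3.3) with TMM scaling and Benjamini-Hochberg adjustment over all of them, in code tested on simulated data. The coefficient of variation was 8.52%. The chi-square per degree of freedom was 11.4 between controls and 7.47 between fructose libraries, above sampling noise. TPM and shares used the longest transcript. Trends on length and GC content were lowess curves (span 0.3) used as offsets. Alternatives were DESeq2 1.42.0, other scalings and filters, the replicate number as a block, trends removed and each library left out. Every member, each other pathway gene that was called, and of the marker lists the gene most abundant in the controls and those at 0 were named. Another 2 genes of these pathways are not reported here. The members and lists were chosen with earlier results of these data known. Eno1b, a copy of Eno1, had 58, 88, 68 and 47 counts, and 0 of 10 pseudogenes named after Gapdh, Pgk1, Pgam1, Ldha and Aldoa were listed, so the levels of these genes and of Eno1 are uncertain where reads are shared.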

Additional observations from a re-analysis of the deposited data

How the results depend on the processing

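With 2 libraries per group only the spread of these 4 could be measured. Leaving 1 out leaves 1 residual degree of freedom, with the lone library assumed to vary like the others. The replicate block also leaves 1 residual degree of freedom. All 11 called genes held their calls with DESeq2 size factors, without mitochondrially encoded and haemoglobin genes in the library sizes, and under both filters; DESeq2 kept 10 of 11, losing Gbe1, and library size only 8, losing Pfkl, Aldoa and Gyg. With library size only 72.3% of all called genes were higher, against 59.2% with TMM. Deviations of same-numbered libraries from their group means correlated at −0.0266 across genes. With 2 libraries per group this cannot show whether the replicate numbers pair the libraries. With the number as a replicate block edgeR called 2117 genes higher and 1441 lower, and all 11 calls held. Eno1 gained a call, lower, with this block and with no filter on low counts. Low counts limit Pfkfb2, Aldoc and Pfkfb4 most.

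Setting by setting, the following values differed from those given above by more than 1.5 times (counts), by more than the spread between libraries (medians and shares) or in sign; the cause was not tested. With DESeq2, the count was 1279 tested genes called higher. With the length trend removed, the count was 1127 tested genes called higher, 2 other pathway genes called lower, and the median log2 fold change was −0.022 for all members, 0.081 for pentose phosphate path, and the log2 fold change turned to 0.043 for Pgk1, 0.060 for Pgam1, 0.14 for Pfkfb1, 0.14 for Rpia. With the GC trend removed, the count was 968 tested genes called higher, 1 member called higher, 2 members called lower, 3 other pathway genes called lower, and the median log2 fold change was 0.0029 for pentose phosphate path, −0.13 for glycogen metabolism, and the log2 fold change turned to 0.14 for Hk1, 0.057 for Pfkm, 0.073 for Pkm, 0.043 for Rpia, 0.012 for Gys1, −0.17 for Gbe1, −0.25 for Ugp2, −0.020 for Slc16a7. With both trends removed, the count was 429 tested genes called higher, 407 tested genes called lower, 0 members called higher, 0 members called lower, 3 other pathway genes called higher, 1 other pathway gene called lower, and the median log2 fold change was 0.030 for all members, 0.023 for glycolysis, 0.16 for pentose phosphate path, −0.091 for glycogen metabolism, and the log2 fold change turned to 0.033 for Hk1, 0.065 for Pfkm, 0.072 for Gapdh, 0.017 for Pgk1, 0.12 for Pgam1, 0.10 for Pkm, 0.013 for Ldha, 0.030 for Ldhb, 0.076 for Pfkfb1, 0.039 for Taldo1, 0.18 for Rpia, −0.092 for Gbe1, −0.089 for Ugp2, −0.32 for Slc16a7, 0.013 for Bsg. With the replicate block and both trends removed, the count was 502 tested genes called higher, 416 tested genes called lower, 1 member called higher, 0 members called lower, 3 other pathway genes called higher, 1 other pathway gene called lower, and the median log2 fold change was 0.030 for all members, 0.025 for glycolysis, 0.16 for pentose phosphate path, −0.091 for glycogen metabolism, and the log2 fold change turned to 0.032 for Hk1, 0.065 for Pfkm, 0.067 for Gapdh, 0.019 for Pgk1, 0.12 for Pgam1, 0.10 for Pkm, 0.0091 for Ldha, 0.033 for Ldhb, 0.075 for Pfkfb1, 0.038 for Taldo1, 0.18 for Rpia, −0.093 for Gbe1, −0.089 for Ugp2, −0.33 for Slc16a7, 0.013 for Bsg. With library size only, the count was 859 tested genes called lower, 3 members called lower, and the median log2 fold change was 0.054 for pentose phosphate path, 0.12 for glycogen metabolism, and the log2 fold change turned to 0.048 for Hk1, 0.058 for Pfkfb1, 0.057 for Pfkfb3, 0.054 for Rpia. With at least 10 counts in every library, the median log2 fold change was 0.0043 for pentose phosphate path, and the log2 fold change turned to 0.0077 for Pfkfb1, 0.0061 for Pfkfb3, 0.0043 for Rpia. With no filter on low counts, the log2 fold change turned to 0.0025 for Pfkfb1, 0.0016 for Pfkfb3. With merged exon length in place of the longest transcript, chosen after seeing the data, the share, fructose minus control, was −0.0426 percentage points for Aldoa (with the longest transcript −0.0266), −1.31 percentage points for Eno1 (with the longest transcript −0.562). Leaving out each library in turn, the counts ranged from 1207 to 2225 for tested genes called higher, 485 to 1700 for tested genes called lower, 3 to 5 for members called higher, 1 to 11 for members called lower, 4 to 8 for other pathway genes called higher, 2 to 7 for other pathway genes called lower. The medians ranged from −0.27 to −0.043 for glycolysis, 0.076 to 0.28 for PFKFB regulators, −0.14 to 0.083 for pentose phosphate path, 0.036 to 0.10 for glycogen metabolism, the single log2 fold changes from −0.049 to 0.027 for Hk1, −0.0082 to 0.28 for Pfkp, −0.25 to 0.056 for Pgk1, −0.19 to 0.010 for Pgam1, −0.24 to 0.021 for Pkm, −0.090 to 0.086 for Pfkfb1, −0.11 to 0.11 for Pfkfb3, −0.11 to 0.19 for G6pdx, −0.10 to 0.24 for Pgd, −0.14 to 0.14 for Rpia, and the shares, in percentage points, from −0.921 to 0.153 for Hk2, −0.0867 to 1.57 for Ldha, −3.94 to 2.10 for Pfkfb3.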
